A study of Mus musculus with 6 samples.

Results

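Cholesterol synthesis and its control by SREBP2 (the product of Srebf2) were described through 29 named genes, from the thiolase and synthase of the first steps to the enzymes that esterify the finished sterol. The genes were picked by name in the table of liver transcript levels, and 28 of the 29 were found among its 13273 rows. Mvd, the decarboxylase between Pmvk and Idi1, was not analysed here. By role, 8 of the genes found act in the mevalonate and isoprenoid steps, 3 make and close squalene, 8 convert lanosterol to cholesterol, 4 control the pathway and 5 handle the product. All 28 had a mean of at least 0.5 FPKM (fragments scaled by transcript length and library depth) and entered the test.

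Livers came from wild type C57Bl/6 female mice that were 2 months old at the start, after 3 weeks on a Lieber–DeCarli liquid diet. For the 3 ETOH-WT mice the diet held rising amounts of ETOH, up to 6.4% v/v at the end. The 3 PF-WT mice were pair-fed the isocaloric control diet, on which both groups had spent 3 days of acclimatization. Livers were taken on day 21 and each gave 1 library of 51 bp pairs. The question was how ETOH feeding alters the liver transcriptome of wild type mice. Cages held 2 mice each, and the sources used here do not say which animals were cage mates. The labels also carry a code, C1 for the ETOH-WT and C3 for the PF-WT mice, whose meaning they do not give, and whatever it marks cannot be told apart from the diet.

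As background, the mevalonate pathway builds isoprenoid units from acetyl-CoA, joins them to squalene and shapes the rings into cholesterol. SREBP2 is made as a membrane protein of the endoplasmic reticulum, and SCAP escorts it to the Golgi, where proteases release the part that enters the nucleus and raises transcription of nearly every enzyme of the pathway. When sterols are plentiful, INSIG1 and INSIG2 hold SCAP back. The liver is the main organ of cholesterol synthesis for lipoproteins and bile acids.

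SREBPs bind sterol regulatory elements and work with the factors NF-Y (at CCAAT boxes) and Sp1 (at GC boxes). Promoter windows of 300 bases, from 250 before to 50 after each start, were read from RefSeq (GRCm38.p6) and were found for 24 of the 29 genes named. A sterol regulatory element spelled TCACNCCAC, on either strand, stood in 1 of these 24 (4.17%) and in 1.47% of the 8824 genes tested for the diet that had a window. CCAAT stood in 21 of 24 (87.5%) against 43.0% of the genes tested, and GGGCGG in 20 of 24 (83.3%) against 68.0%. A match is a run of letters and not a measured binding site. Other spellings of the sterol element were not searched, so these shares do not count all such elements. Sqle, Fdps, Fdft1, Stard4 and Soat2 had no window, and the 24 include Mvd, whose level was not analysed. The following windows, chosen after the levels were seen, belong to Hmgcs1 (the single gene with the sterol element), Insig1 (low in every ETOH-WT liver) and Nsdhl (at the PF-WT level in ETOH-WT mouse 2). They lie on the plus strand at chr13:119690101-119690400, chr5:28071162-28071461 and chrX:72918271-72918570, and capitals mark the sterol element, the CCAAT box (which reads ATTGG when it lies on the other strand) and the GC box GGGCGG (which then reads CCGCCC).
Hmgcs1: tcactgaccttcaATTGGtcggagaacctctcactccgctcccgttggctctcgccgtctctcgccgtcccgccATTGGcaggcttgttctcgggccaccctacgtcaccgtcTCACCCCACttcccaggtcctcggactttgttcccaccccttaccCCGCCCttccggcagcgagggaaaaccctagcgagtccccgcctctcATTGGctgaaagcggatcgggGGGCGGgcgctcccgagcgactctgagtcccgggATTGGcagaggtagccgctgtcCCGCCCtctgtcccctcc
Insig1: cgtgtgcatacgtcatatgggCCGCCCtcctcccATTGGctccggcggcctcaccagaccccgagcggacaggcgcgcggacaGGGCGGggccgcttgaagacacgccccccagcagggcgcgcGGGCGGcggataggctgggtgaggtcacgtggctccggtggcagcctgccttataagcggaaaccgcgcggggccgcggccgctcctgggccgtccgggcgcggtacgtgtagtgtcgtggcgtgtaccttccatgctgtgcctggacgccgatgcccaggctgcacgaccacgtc
Nsdhl: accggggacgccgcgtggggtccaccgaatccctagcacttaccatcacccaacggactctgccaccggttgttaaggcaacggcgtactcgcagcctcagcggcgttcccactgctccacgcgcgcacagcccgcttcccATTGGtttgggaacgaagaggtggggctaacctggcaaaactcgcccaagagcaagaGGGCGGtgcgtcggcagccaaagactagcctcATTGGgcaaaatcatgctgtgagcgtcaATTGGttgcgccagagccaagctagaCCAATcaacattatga
In the Hmgcs1 window the sterol element began 137 bases before the start, and the CCAAT matches nearest to it began 176 and 45 bases before the start. The Insig1 window held 1 CCAAT and 3 GC box matches, and that of Nsdhl held 4 CCAAT and 1 GC box match. No match overlapped another in these windows.

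Part of the pathway was lower in the ETOH-WT livers, and the size of the difference varied among these 3 livers. Of the 28 genes, 7 fell in the ETOH-WT livers and 0 rose (limma, adjusted p under 0.05 over all 11346 genes tested), against 2.67% of all genes lower and 3.97% higher. The genes that fell were Insig1, Scap, Pmvk, Lss, Tm7sf2, Sc5d and Hsd17b7. At an unadjusted p under 0.05, 16 genes were lower (9.33% of all genes) and 2 higher (14.4% of all genes). In 12 genes every ETOH-WT value lay below every PF-WT value (11.2% of all genes), and in 2, Soat2 and Lcat, every ETOH-WT value lay above (17.9% of all genes). The median log2 fold change was -0.80 over the 28 genes and 0.02 over all genes tested, on the log2(FPKM + 1) scale that is used for every fold change here.

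**Figure D1:**
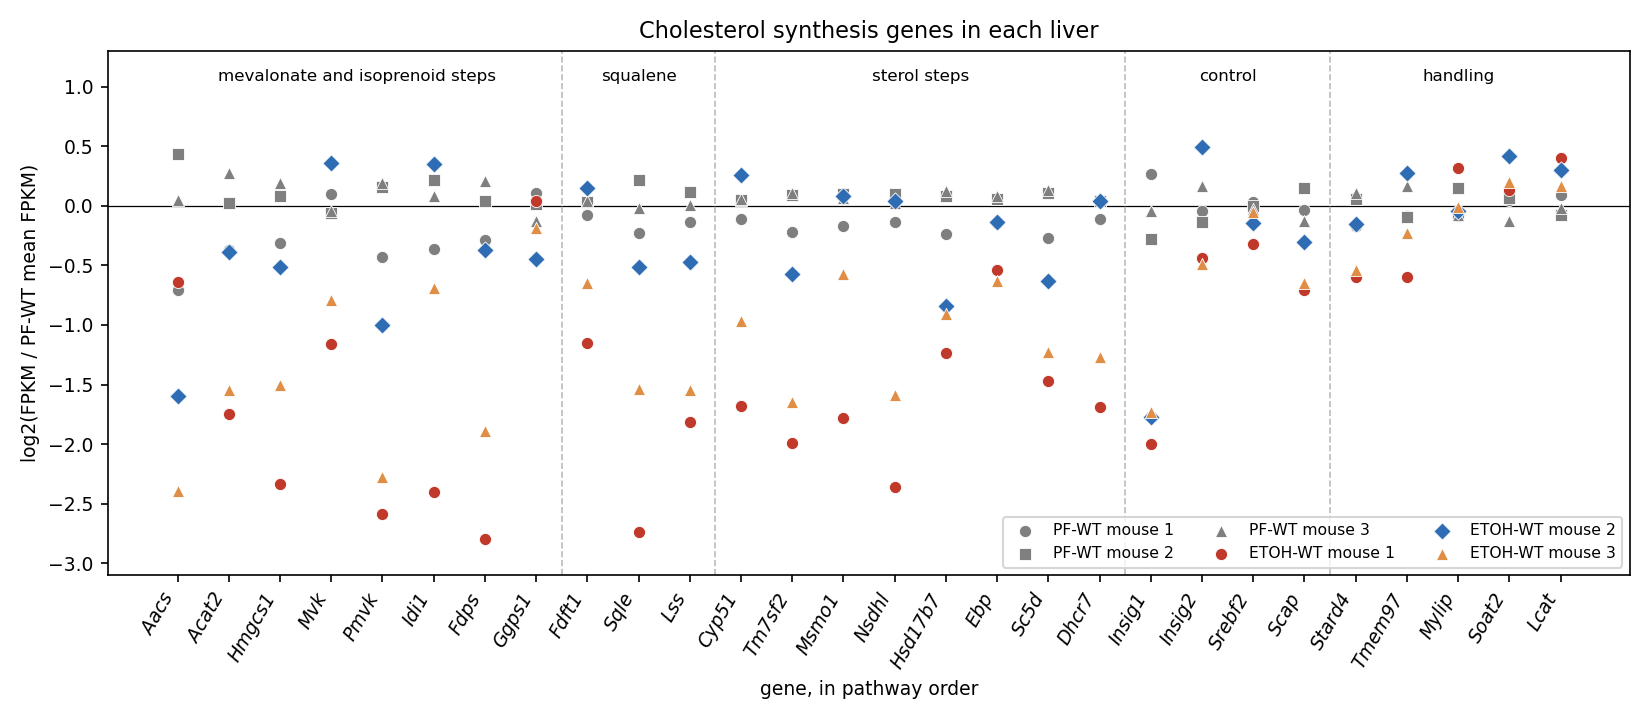
Level of each of the 28 genes in each liver as log2 of its FPKM over the PF-WT mean, with genes in pathway order on the x axis; grey symbols are PF-WT mice and coloured symbols ETOH-WT mice. ETOH-WT mice 1 and 3 lie below the PF-WT range in 23 and 25 genes, while mouse 2 lies below it in 14 and above it in 8. For single livers, the share of all genes below or above the PF-WT range was not counted.

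The count of genes that fell depended on which livers were kept. Without ETOH-WT mouse 2 it rose to 18 (2.64% of all genes lower), and these 18 include the 7 found with all livers. Without ETOH-WT mouse 1 it was 3 (Insig1, Hsd17b7 and Aacs, with 1.63% of all genes), and without ETOH-WT mouse 3 it was 2 (0.669%). Leaving out PF-WT mouse 1, 2 or 3 gave 4, 1 and 2 genes (1.67%, 0.671% and 2.33% of all genes). Insig1 passed in 6 of these 6 fits and Hsd17b7 in 5, being lost without PF-WT mouse 2 (adjusted p = 0.0508 with limma). Pmvk and Sc5d passed in 2, namely with PF-WT mouse 1 left out and with ETOH-WT mouse 2 left out. Lss, Tm7sf2 and Scap passed in 1, the fit without ETOH-WT mouse 2. That mouse was the highest of its diet in 22 of the 28 genes, so leaving it out favours calls of a fall. Values without it, given below for single genes, are no separate evidence of a fall. With another liver left out, the limma adjusted p reached 0.199 for Hmgcs1, 0.236 for Fdps and 0.716 for Mvk.

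The first enzymes of the pathway were lower in ETOH-WT mice 1 and 3 than in mouse 2, except Aacs and Ggps1. Values are given in the order of mouse 1, 2 and 3. Pmvk, phosphomevalonate kinase (chr3:89454541-89469013), had 94.7, 142 and 146 FPKM in the PF-WT livers and 21.3, 63.9 and 26.4 FPKM in the ETOH-WT livers. The groups did not overlap, and ETOH-WT mouse 2 stood between the other ETOH-WT livers and the PF-WT range. From 128 ± 28.5 to 37.2 ± 23.3 FPKM (mean ± SD, n = 3 each), Pmvk fell by 1.89 on the log2 scale (SE 0.37, adjusted p = 0.0260, limma), the lowest log2 fold change of the 28 genes. It was the single mevalonate or isoprenoid gene past the test, of 8.

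Hmgcs1, the cytosolic HMG-CoA synthase (chr13:119690462-119708086), had 193, 254 and 274 FPKM on the control diet and 47.8, 168 and 85.1 FPKM on ETOH. Here too the groups did not overlap, with mouse 2 nearest to the controls. Its log2 fold change was -1.42 (SE 0.39, adjusted p = 0.0693) with all livers and -1.88 (SE 0.25, adjusted p = 0.0118) without ETOH-WT mouse 2. Fdps, which makes farnesyl diphosphate (chr3:89093588-89101959), had 302, 379 and 424 FPKM in PF-WT mice and 53.2, 286 and 99.4 FPKM in ETOH-WT mice. Its lowest liver was at 0.144 of the PF-WT mean and mouse 2 at 0.775 of it. The log2 fold change of Fdps was -1.66 (SE 0.51, adjusted p = 0.0965), and -2.31 (SE 0.26, adjusted p = 0.0075) without mouse 2.

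Acat2, the thiolase that makes acetoacetyl-CoA and not the sterol acyltransferase of a like name, had 41.4, 54.3 and 65.0 FPKM in PF-WT and 15.9, 40.9 and 18.3 FPKM in ETOH-WT livers. Its groups did not overlap, by a margin of under 1 FPKM between ETOH-WT mouse 2 and PF-WT mouse 1 (log2 fold change -1.17, SE 0.33, adjusted p = 0.0722). Mvk, mevalonate kinase, had 26.1, 23.4 and 23.6 FPKM on the control diet and 10.9, 31.2 and 14.1 FPKM on ETOH. Idi1, which interconverts the isoprenoid units, had 23.9, 35.8 and 32.6 FPKM on the control diet and 5.84, 39.2 and 19.0 FPKM on ETOH. In both genes ETOH-WT mouse 2 was the highest of the 6 livers and the other ETOH-WT mice were the lowest. Neither passed the test with all livers (adjusted p = 0.385 and 0.401), and Mvk passed without mouse 2 (log2 fold change -0.92, SE 0.12, adjusted p = 0.0118).

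Aacs, which activates acetoacetate for this pathway, had another order of livers: 29.2, 64.3 and 49.1 FPKM in PF-WT and 30.5, 15.8 and 9.06 FPKM in ETOH-WT mice. Here ETOH-WT mouse 1 was the highest of its diet and overlapped PF-WT mouse 1 (adjusted p = 0.0851). Without ETOH-WT mouse 1, Aacs passed the test (log2 fold change -1.83, adjusted p = 0.0352). Ggps1, whose product feeds protein prenylation rather than sterols, ranged from 2.31 to 3.38 FPKM over the 6 livers and its groups overlapped (log2 fold change -0.14, adjusted p = 0.515).

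Of the squalene genes, Lss fell and the other 2 did not pass the test. Lss, which closes squalene epoxide to lanosterol (chr10:76531588-76557138), had 38.4, 45.8 and 42.4 FPKM in PF-WT and 12.0, 30.5 and 14.5 FPKM in ETOH-WT livers. Every ETOH-WT liver lay below the control range and mouse 2 was the nearest to it. Lss fell by 1.22 on the log2 scale (SE 0.29, adjusted p = 0.0472), a call that was lost without a filter on low values (adjusted p = 0.0544) and without a variance trend (adjusted p = 0.0525).

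Sqle, the squalene epoxidase (chr15:59315077-59331192), had 66.3, 90.4 and 76.9 FPKM in PF-WT and 11.7, 54.5 and 26.8 FPKM in ETOH-WT mice. The groups did not overlap, and ETOH-WT mouse 1 was at 0.150 of the PF-WT mean against 0.700 in mouse 2. Its log2 fold change was -1.54 (SE 0.45, adjusted p = 0.0836), and -2.06 (SE 0.31, adjusted p = 0.0177) without mouse 2. Fdft1, squalene synthase, had 63.7, 68.7 and 69.0 FPKM on the control diet and 30.3, 74.4 and 42.8 FPKM on ETOH, so that mouse 2 was above every control liver and the other 2 ETOH-WT mice were below (adjusted p = 0.280).

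All 8 sterol genes had a negative log2 fold change, a count with no share over all genes beside it, and 3 passed the test. In all 8 ETOH-WT mouse 2 was the highest liver of its diet (38.7% of all genes). Hsd17b7, a 3-keto reductase of the demethylation steps (chr1:169949535-169969241), differed least among the ETOH-WT livers. It had 30.4, 37.7 and 39.0 FPKM in PF-WT and 15.1, 19.9 and 19.0 FPKM in ETOH-WT mice. All 3 ETOH-WT livers lay close together below the control range. From 35.7 ± 4.66 to 18.0 ± 2.55 FPKM (mean ± SD, n = 3 each), Hsd17b7 fell by 0.95 on the log2 scale (SE 0.14, adjusted p = 0.0102, limma).

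Tm7sf2, a sterol C14 reductase (chr19:6062821-6068373), had 134, 166 and 168 FPKM in PF-WT and 39.2, 105 and 49.8 FPKM in ETOH-WT livers. Sc5d, which puts in the C5 double bond (chr9:42254177-42264300), had the highest mean level per length of the 28 genes in the PF-WT livers (in the ETOH-WT livers Lcat was higher), with 543, 703 and 716 FPKM on the control diet and 236, 422 and 279 FPKM on ETOH. Both genes were lower in every ETOH-WT liver than in any control, with mouse 2 the highest of its diet. Tm7sf2 fell by 1.38 on the log2 scale (SE 0.31, adjusted p = 0.0413). Sc5d fell by 1.10 (SE 0.21, adjusted p = 0.0260).

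In the other 5 sterol genes ETOH-WT mouse 2 was within or above the control range. Nsdhl, the sterol 4-carboxylate dehydrogenase (chrX:72918557-72958514), had 73.1, 85.9 and 81.5 FPKM in PF-WT mice and 15.6, 82.2 and 26.8 FPKM in ETOH-WT mice. ETOH-WT mouse 2 stood at 1.03 of the PF-WT mean, while mice 1 and 3 stood at 0.195 and 0.334 of it. The log2 fold change was -1.26 (SE 0.49, adjusted p = 0.170), and -1.92 (SE 0.21, adjusted p = 0.0062) without mouse 2.

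Dhcr7, which reduces 7-dehydrocholesterol, had 88.7, 98.2 and 100.4 FPKM on the control diet and 29.7, 98.2 and 39.7 FPKM on ETOH. Cyp51, the lanosterol demethylase, had 80.4, 89.9 and 90.0 FPKM on the control diet and 27.1, 104 and 44.3 FPKM on ETOH. Msmo1, the methylsterol oxidase, had 155, 186 and 182 FPKM on the control diet and 50.8, 185 and 117 FPKM on ETOH. In each of these genes mice 1 and 3 were below all controls and mouse 2 was at or above the control mean, and none passed the test (adjusted p = 0.169, 0.285 and 0.299). Without mouse 2, Dhcr7 (-1.45, SE 0.13, adjusted p = 0.0040) and Cyp51 (-1.30, SE 0.19, adjusted p = 0.0165) passed, and Msmo1 did not (-1.16, SE 0.31, adjusted p = 0.0854). Ebp, the sterol isomerase, had ETOH-WT levels of 147, 193 and 137 FPKM against 192 to 225 FPKM in the controls (adjusted p = 0.11).

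Of the 4 control genes, Insig1 and Scap fell, and Srebf2 and Insig2 did not pass the test. Insig1 is itself a target of the SREBPs, so its transcript is often read as a gauge of their activity (chr5:28071363-28078662). It had 426, 293 and 344 FPKM in PF-WT and 88.8, 104 and 107 FPKM in ETOH-WT mice. The 3 ETOH-WT livers lay close together, mouse 2 included, at 0.251, 0.294 and 0.302 of the PF-WT mean. From 354 ± 67.1 to 99.9 ± 9.74 FPKM (mean ± SD, n = 3 each), Insig1 fell by 1.80 on the log2 scale (SE 0.15, adjusted p = 0.0012, limma), and without mouse 2 by 1.83 (SE 0.17, adjusted p = 0.0040).

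Insig2, the other retention protein, whose transcript is not driven by the SREBPs (chr1:121304353-121332589), had 109, 102 and 126 FPKM in PF-WT and 83.2, 158 and 80.2 FPKM in ETOH-WT mice. Mouse 2 was above and mice 1 and 3 below the control range (log2 fold change -0.14, SE 0.24, adjusted p = 0.782). Taken within each liver, the log2 ratio of Insig2 to Insig1 was -1.96, -1.51 and -1.44 in PF-WT and -0.09, 0.60 and -0.41 in ETOH-WT mice. The ratio was higher in every ETOH-WT liver than in any control, by 1.67 between the means (-1.63 ± 0.28 and 0.03 ± 0.52, SD, n = 3 each). The exact permutation test (two-sided) gave p = 0.1, the smallest p that 3 livers against 3 can give. Most of this difference is the fall of Insig1 (log2 fold change -1.80), so the ratio is no separate evidence of that fall.

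Scap, the escort protein (chr9:110333288-110384950), had 47.1, 53.4 and 44.2 FPKM on the control diet and 29.6, 39.0 and 30.7 FPKM on ETOH. The groups did not overlap and mouse 2 was again nearest to the controls. Scap fell by 0.54 on the log2 scale (SE 0.13, adjusted p = 0.0443), and without a variance trend the adjusted p was 0.0547. Srebf2 itself (chr15:82147266-82205376) had 16.3, 16.0 and 15.8 FPKM in PF-WT and 12.9, 14.5 and 15.4 FPKM in ETOH-WT livers. Its groups did not overlap, and the difference was small (log2 fold change -0.16, SE 0.09, adjusted p = 0.335). Among the ETOH-WT livers Srebf2 was highest in mouse 3, not in mouse 2.

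**Figure D2:**
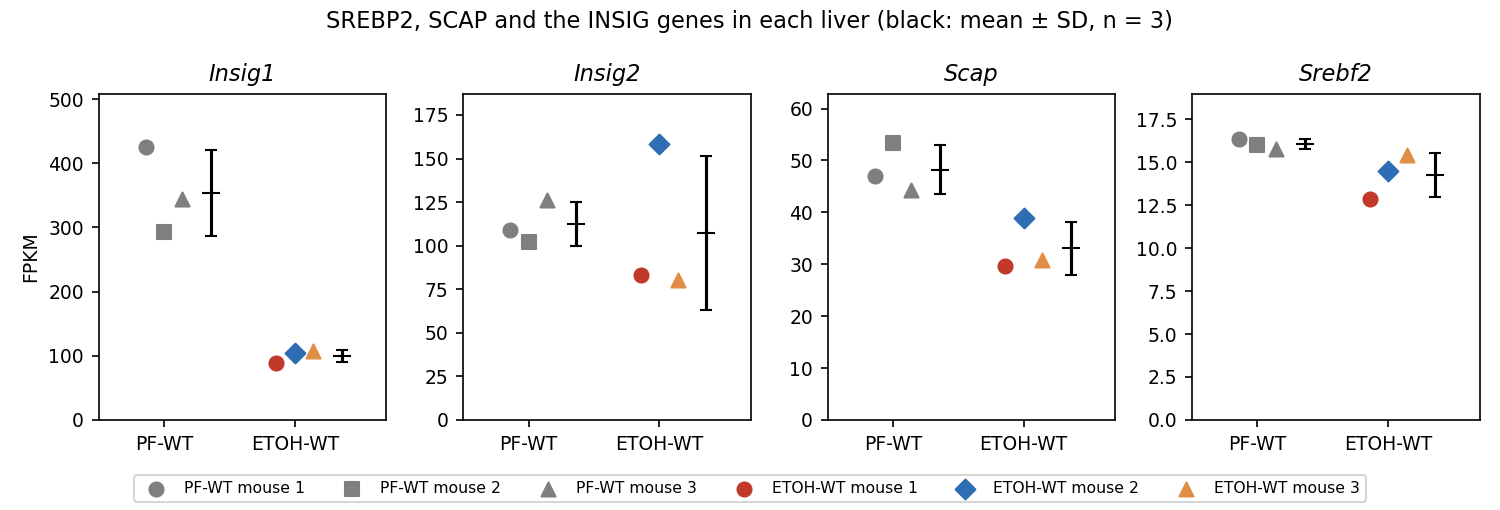
FPKM of the 4 control genes in each liver by diet, with each y axis starting at 0 and the black mark and bar giving mean ± SD (n = 3). The ETOH-WT livers lie between 88.8 and 107 FPKM for Insig1, while for Insig2 mouse 2 (158 FPKM) stands above and mice 1 and 3 (83.2 and 80.2 FPKM) below the controls.

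None of the 5 handling genes passed the limma test, with 1 lower and 2 higher at an unadjusted p under 0.05. Lcat, which esterifies cholesterol in plasma, had 369, 328 and 343 FPKM in PF-WT and 458, 427 and 389 FPKM in ETOH-WT mice. Soat2, the sterol acyltransferase that stores cholesteryl esters, had 24.5, 24.7 and 21.6 FPKM in PF-WT and 25.9, 31.5 and 27.1 FPKM in ETOH-WT mice. In both genes every ETOH-WT liver was above every control, without passing the test (adjusted p = 0.127 and 0.201), and Lcat passed when libraries were weighted (adjusted p = 0.0468).

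Stard4, a cytosolic sterol carrier, ranged from 36.9 to 44.7 FPKM in PF-WT and from 27.6 to 37.5 FPKM in ETOH-WT livers, the highest of them being mouse 2 (adjusted p = 0.11, and 0.0351 without mouse 2). Tmem97, a partner of the lysosomal sterol exporter NPC1, and Mylip, the ligase that degrades lipoprotein receptors, overlapped between the diets (adjusted p = 0.648 and 0.740). Their fitted direction depended on the liver left out or on library weights, as did that of Insig2.

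**Figure D3:**
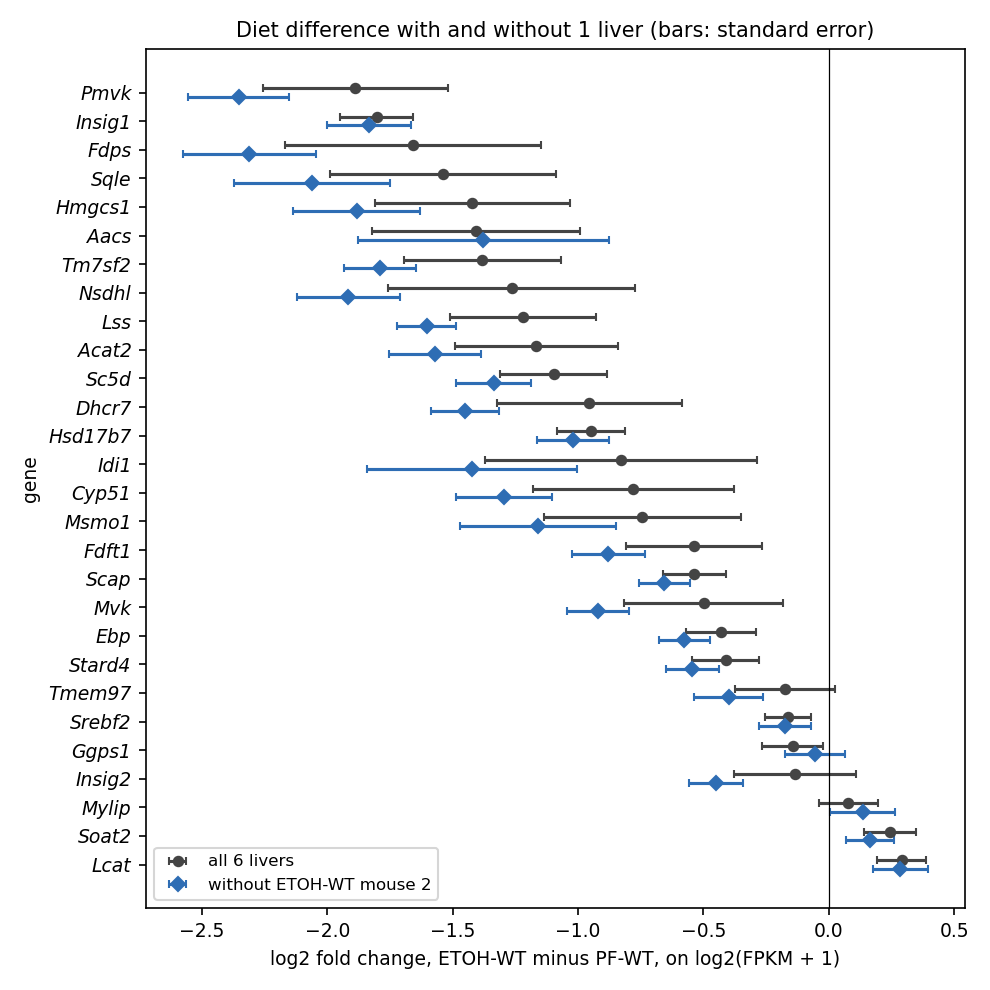
Log2 fold change (ETOH-WT minus PF-WT on log2(FPKM + 1), x axis) of the 28 genes (y axis, ordered by that value) with all 6 livers (circles) and without ETOH-WT mouse 2 (diamonds); bars are standard errors. Fdps moves from -1.66 to -2.31 and Nsdhl from -1.26 to -1.92, whereas Insig1 stays near -1.80 and Hsd17b7 near -0.95.

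Across the genes, the ETOH-WT livers kept 1 order more often than genes at large did. Mouse 2 was the highest of its diet in 22 of the 28 genes (38.7% of all genes), and mouse 1 the lowest in 22 (30.4% of all genes). Of the PF-WT livers, mouse 1 was the lowest in 19 (26.2% of all genes), although it had the highest Insig1 level. Summed over the 28 genes, the level was 3266, 3670 and 3816 FPKM in PF-WT and 1573, 2902 and 1804 FPKM in ETOH-WT mice. Mouse 2 thus stood nearer to the lowest control than to the other ETOH-WT livers.

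Among the 19 enzymes of synthesis, the median log2 difference from the PF-WT mean was -0.21, 0.10 and 0.08 in the PF-WT livers and -1.67, -0.35 and -1.25 in the ETOH-WT livers. The medians in the ETOH-WT livers were -1.93, -0.35 and -1.47 over the 8 mevalonate and isoprenoid genes and -1.65, -0.05 and -1.08 over the 8 sterol genes. Over all genes tested the same medians were 0.04, 0.03 and 0.01, values that the scaling of FPKM within each library largely sets.

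A liver left out of the fit can be set against the controls, although the same 3 PF-WT livers also set the calls. Of the 18 genes called lower without ETOH-WT mouse 2, that liver's own value lay below every control in 11 (61.1%). The 7 in which it did not were Fdft1, Cyp51, Dhcr7, Mvk, Nsdhl, Ebp and Stard4. Of the 300 genes called lower in the whole table by the same fit, its value lay below every control in 273 (91.0%). With mouse 1 left out these counts were 2 of 3 and 172 of 185 (93.0%), and with mouse 3 left out they were 2 of 2 and 76 of 76. Part of the 18 genes were called only because mouse 2, high in them, was left out, so its 61.1% is partly set by that choice. No test was made of these shares.

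The genes of fatty acid synthesis, which answer mainly to SREBP1c, gave another order of livers. Of 10 such genes 8 fell, against 2.67% of all genes (Scd1 with the lowest log2 fold change, -4.14, adjusted p = 0.0024, and Acss2 next with -2.68, adjusted p = 0.0121), and their median was -1.99. Their median log2 difference from the PF-WT mean was -1.52, -1.89 and -2.36 in ETOH-WT mice 1, 2 and 3. Mouse 2 lay below all controls in 9 of 10, a count with no share over all genes beside it. The count of these genes that fell also depended on the livers kept. It was 6, 5 and 4 without ETOH-WT mouse 1, 2 and 3 (1.63%, 2.64% and 0.669% of all genes). All 5 of those called without mouse 2 were below every control in mouse 2 as well.

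**Figure D4:**
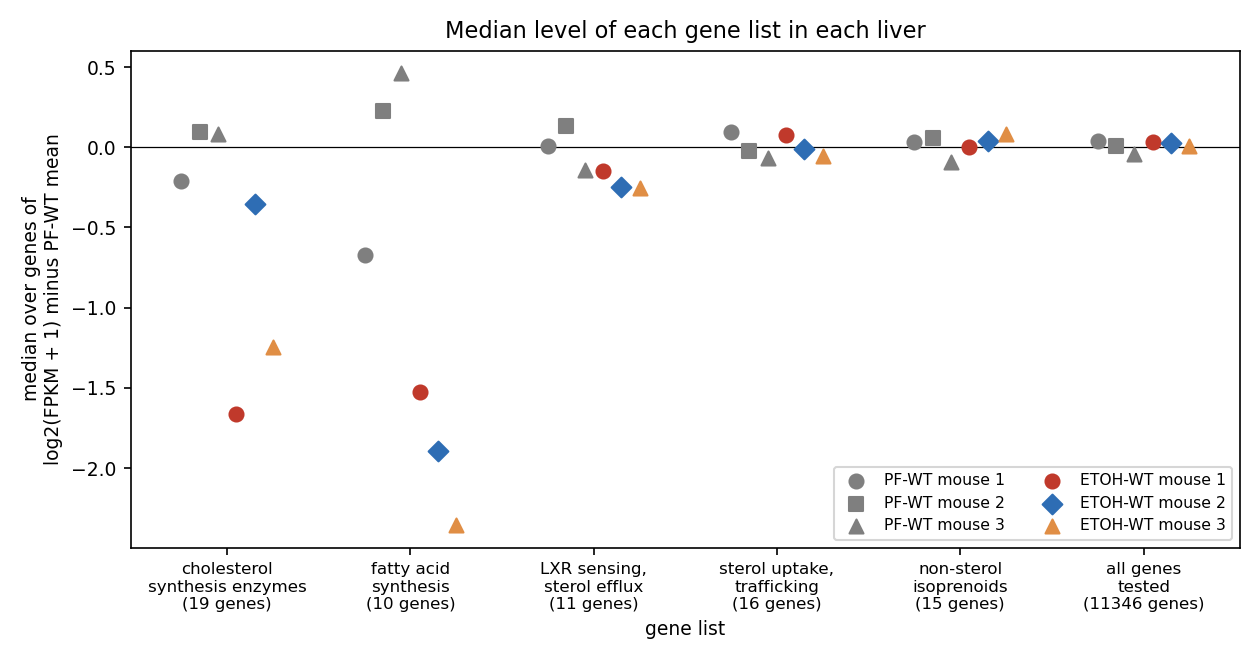
Median over the genes of each list of log2(FPKM + 1) minus the PF-WT mean, for each liver (grey PF-WT, coloured ETOH-WT), with lists and their number of genes on the x axis. For the 19 enzymes of cholesterol synthesis ETOH-WT mouse 2 (-0.35) lies near the controls, while for fatty acid synthesis it lies at -1.89 between the other ETOH-WT mice.

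Other genes around the pathway were taken from further lists, whose counts stand beside 2.67% of all genes lower and 3.97% higher past the test, and 9.33% lower and 14.4% higher at an unadjusted p under 0.05. The 11 genes for SREBP processing and turnover include the proteases that release SREBPs and the ligases that degrade INSIGs. Of these, 0 passed the limma test in either direction (median log2 fold change 0.17). At an unadjusted p under 0.05 stood 3 of them, all higher. In this list Fbxw7 was listed at 52060 FPKM in ETOH-WT mouse 1 and at 1.78 to 2.37 FPKM in the other livers. That value is part of the 625003 FPKM that this library sums to, and whether it is an error made before deposit was not tested. Of 11 genes for LXR sensing and sterol efflux 2 fell, Pltp, a phospholipid transfer protein (log2 fold change -1.89, adjusted p = 0.0011), and Srebf1 (-1.31, adjusted p = 0.0227). Both were low in all 3 ETOH-WT livers. At an unadjusted p under 0.05 this list had 4 genes, some lower and some higher.

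Of 16 genes for sterol uptake and trafficking 0 passed in either direction (limma, median 0.01), and without mouse 2 Nceh1, a cholesteryl ester hydrolase, rose. At an unadjusted p under 0.05 stood 6 of these 16, some lower and some higher. Of 15 genes of the non-sterol branch, which makes dolichol, ubiquinone and prenyl groups, 0 passed in either direction (limma, median 0.07). The 2 genes at an unadjusted p under 0.05 went in opposite directions. That branch stood near 0 in every liver, ETOH-WT mice 1 and 3 included.

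The tissue matched its label, with the albumin gene Alb between 46953 and 60199 FPKM. The summed level of 7 hepatocyte markers was 82370 to 85910 FPKM in PF-WT and 68370 to 74550 FPKM in ETOH-WT livers, lowest in mouse 2, with 1 marker called lower (Tat) and 1 higher (Hnf4a). Erythroid markers, 5 genes, summed to 212 to 284 FPKM in PF-WT and 159 to 242 FPKM in ETOH-WT livers. Mouse 2 was the highest of the ETOH-WT livers. All 5 genes lay below the controls in mice 1 and 3, a count with no share over all genes beside it. Cholangiocyte markers, 5 genes, summed to 31.8 to 38.8 FPKM in PF-WT and 21.7 to 29.2 FPKM in ETOH-WT livers. Neutrophil markers, 4 genes, went the other way, with overlap, from 7.39 to 18.9 FPKM in PF-WT to 15.8 to 26.5 FPKM in ETOH-WT livers. None of the stellate, Kupffer, endothelial, cholangiocyte, erythroid, neutrophil or lymphocyte markers passed the test, and adipocyte and pancreas markers were not analysed here. The part of these shifts in the differences above was not tested, and in bulk liver fewer cells of a type and less RNA per cell cannot be told apart. Exons of Cyp51, Fdft1 and Ggps1 overlap a protein-coding gene on the opposite strand (Akap9, Ctsb and Arid4b). Those of Tm7sf2 and Fdps overlap a protein-coding gene on the same strand (Vps51 and Gm43738). Exons of Lss, Scap, Idi1 and Hmgcs1 overlap genes of other types on the opposite strand. The sources used here do not say whether counting used the strand, so the levels of all these genes are less certain.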

How the data were processed

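Liver libraries of 3 mice per diet were analyzed, each mouse being 1 replicate. The authors deposited 1 table of FPKM. The unit was read from its values, since no label names it, and the 6 libraries sum to 567808 to 625003. ETOH-WT mouse 1 had 0 genes at a value of 0, against 86 to 163 in the other libraries, and the reason was not tested. According to the methods, the authors aligned reads with STAR to GRCm38, counted them with HTSeq-count and tested them with DESeq2. Tools listed by the submitters are cutadapt, TopHat2 (2.0.11) and HTSeq (0.11.2, 1.6.3), in no order. How the FPKM were made is not stated in these sources. No counts were used and depth is unknown, so no counting interval was given, and limma 3.58.1 (R 4.3.3, eBayes with a variance trend) on log2(FPKM + 1) was the test.

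Rows averaging at least 0.5 FPKM (11346) were fitted with diet alone, leaving 4 residual degrees of freedom. Benjamini-Hochberg adjustment of two-sided p-values covered all of these rows, with a threshold of 0.05. Where a gene name was repeated (25 rows), that with the higher mean was taken. Table starts, which count from 0, were raised by 1, and 80.0% of rows then matched GENCODE vM21. The procedure was tested on simulated data, with genes drawn independently and with equal spread in both diets. A liver that shifts many genes together was not simulated. The genes and lists were chosen with earlier results of these data known. Genes past the test and Insig2, Srebf2 and Scap were named with their value in each liver, other genes after their values were seen, and of each further list at most 2 called genes in each direction. The promoter rule (called genes with the sterol element) named none. Some genes of the pathway are not reported here. Tables and figures were made in Python 3.11.15 (pandas 2.3.3, scipy 1.17.1, matplotlib 3.10.9). Alternatives were other pseudocounts (0.1 and 2), filters (none and 1 FPKM), median-ratio and quantile scaling, no variance trend, array weights, a replicate block and leaving out each liver.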

Additional observations from a re-analysis of the deposited data

How the results depend on the processing

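Pseudocounts, filters and scaling left the count of cholesterol genes that fell between 6 and 8 (main value 7), and without a variance trend it was 5. Weighting the libraries gave 18 lower and 1 higher (Lcat), with 945 genes lower and 1327 higher in the whole table against 303 and 450. The lowest weight fell on ETOH-WT mouse 2 (0.477, against 0.594 to 3.3 for the other livers). The weighted fit thus counts that mouse least, much as leaving it out does, and is no separate evidence of a fall. Leaving out 1 liver gave 1 to 18 cholesterol genes lower and 0 higher, 76 to 300 genes lower and 83 to 347 higher, and a log2 ratio of Insig2 to Insig1 of 1.38 to 1.89. Median-ratio scaling split the calls of the whole table into 328 higher and 331 lower, against 450 and 303. Replicate numbers did not pair the livers (correlations of deviations -0.01, -0.02 and -0.03, none highest for its own number), and with the replicate block 9 cholesterol genes fell, Hmgcs1 and Sqle being added, of 201 genes lower and 253 higher. Leaving out 1 liver turned the log2 fold change of Insig2 (-0.45 to 0.035, positive without ETOH-WT mouse 1 or 3), Tmem97 (-0.40 to 0.030, positive without ETOH-WT mouse 1) and Mylip (-0.021 to 0.14, negative without ETOH-WT mouse 1), and library weights turned that of Mylip (-0.019). The cause was not tested. With 3 livers per diet and unknown depth, differences within the spread between livers could not be resolved.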
